A study of Homo sapiens with 14 samples.

Results

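The Nrf2 control system was examined as a set of 9 genes in the KLF4 ChIP-seq peak lists of BEAS-2B cells. The set was chosen by function from the names of the genes and holds NFE2L2 (which encodes Nrf2), KEAP1, CUL3, SQSTM1, MAFF, MAFG, MAFK, BACH1 and NFE2L1, 9 of the 20033 protein-coding genes on the autosomes, X and Y. A KLF4 peak was assigned to a gene where its summit lay from 10 kb upstream of the gene start to 2 kb past the gene end. BEAS-2B is a line of human bronchial epithelial cells, and KLF4 is a zinc finger transcription factor of stem and epithelial cells. The 4 libraries came from WT cells without As3+ (WT control), WT cells with 1 µM As3+ for 6 h (WT As3+), Nrf2 knockout cells without As3+ (Nrf2 KO control) and Nrf2 knockout cells with the same As3+ treatment (Nrf2 KO As3+), 1 library for each condition. The knockout was made with CRISPR-Cas9 and guide RNAs against an exon of NFE2L2, and colonies were called knockout by the absence of Nrf2 protein. Whether the Nrf2 KO libraries came from 1 colony or from a pool is not given in the sources used here. A list of KLF4 peaks measures neither Nrf2 protein nor RNA, so it cannot check the knockout or the labelled cell type. It cannot check either which of the 2 Nrf2 KO libraries was treated, and every Nrf2 KO value rests on that label. The library labelled Nrf2 KO control has the longest list of the 4 and the one labelled Nrf2 KO As3+ the shortest.

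Nrf2 is held at a low level in unstressed cells because KEAP1 brings it to the CUL3 ubiquitin ligase, which marks it for degradation. Arsenic and other stressors of KEAP1 cysteines release it, and Nrf2 then pairs with a small MAF protein on antioxidant response elements (AREs) of its target genes, where BACH1, a repressor, pairs with the same MAF proteins. Several genes of this system are themselves known Nrf2 targets, among them SQSTM1, MAFG and NFE2L2, and NFE2L1 encodes a related factor that reads the same kind of element.

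KLF4 peaks lay at all 9 genes in WT As3+ cells and in Nrf2 KO control cells, and at none of them in WT control or Nrf2 KO As3+ cells. The 9 windows held 0 peaks in WT control, 30 in WT As3+, 52 in Nrf2 KO control and 0 in Nrf2 KO As3+ cells. The whole lists moved the same way, and the members were read against them. Of all protein-coding genes, 2.51% had a peak in WT control, 66.5% in WT As3+, 81.0% in Nrf2 KO control and 0.439% in Nrf2 KO As3+ cells. The pattern of the 9 members, a peak in WT As3+ and Nrf2 KO control and none in either other list, was that of 61.3% of protein-coding genes. The median member had 3 peaks in WT As3+ and 5 in Nrf2 KO control cells, against 1 and 2 for all protein-coding genes. Per 10 kb of window the members held 0.321 and 0.557 peaks, against 0.193 and 0.450 over all protein-coding windows. With 1 library per condition no difference between conditions could be tested, and the values compare libraries.

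**Figure D1:**
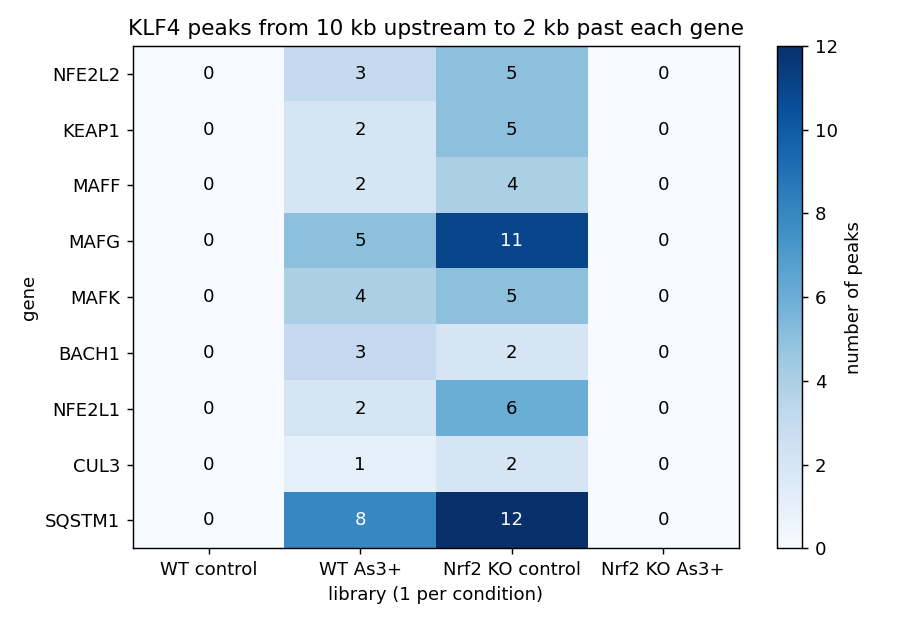
Number of KLF4 peaks in the window of each of the 9 genes (rows) in each of the 4 libraries (columns), with darker cells for higher numbers. Every gene has 0 peaks in WT control and Nrf2 KO As3+ cells, and the highest numbers are those of SQSTM1 (8 and 12) and MAFG (5 and 11).

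The 4 lists differed in length and in the lowest −log10 p of a listed peak. They held 751, 29870, 76545 and 130 peaks in WT control, WT As3+, Nrf2 KO control and Nrf2 KO As3+ cells. Total read numbers are not in the lists. The study's methods describe random sampling of tags down to the smallest library where they describe density maps, and do not say whether peaks were called on the sampled tags, so the depth behind each list is unknown. The number of fragments over a summit and the local background could be worked out from each fold enrichment and p-value. The lowest background of a listed peak was 1.90, 0.757, 0.491 and 1.64 fragments, and the lowest −log10 p was 4.64, 3.17, 2.87 and 5.03, in the same order. The lowest −log10 q was near the same in all, at 1.03, 1.00, 1.02 and 1.01. The 2 short lists thus had higher backgrounds and, at a near equal lowest −log10 q, a higher lowest −log10 p. The part of background and of the lowest −log10 p in the absence of member peaks was not tested directly. Given the same fold on a background scaled to that of the other library, 29 of the 30 WT As3+ member peaks would have reached the lowest −log10 p of the WT control list and 28 of 30 that of the Nrf2 KO As3+ list. All 52 Nrf2 KO control member peaks would have reached that of WT control and 51 of 52 that of Nrf2 KO As3+. At an unchanged fold a higher background gives more fragments and a smaller p-value, so these counts largely follow from the scaling. They cannot show why the short lists lack these peaks. The scaling uses the lowest background of a listed peak, which is not a measure of depth. With each list reduced to its 130 strongest peaks (131 in WT As3+ because of a tie), no member kept a peak in any library, and 0.449%, 0.499%, 0.679% and 0.439% of protein-coding genes did.

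**Figure D2:**
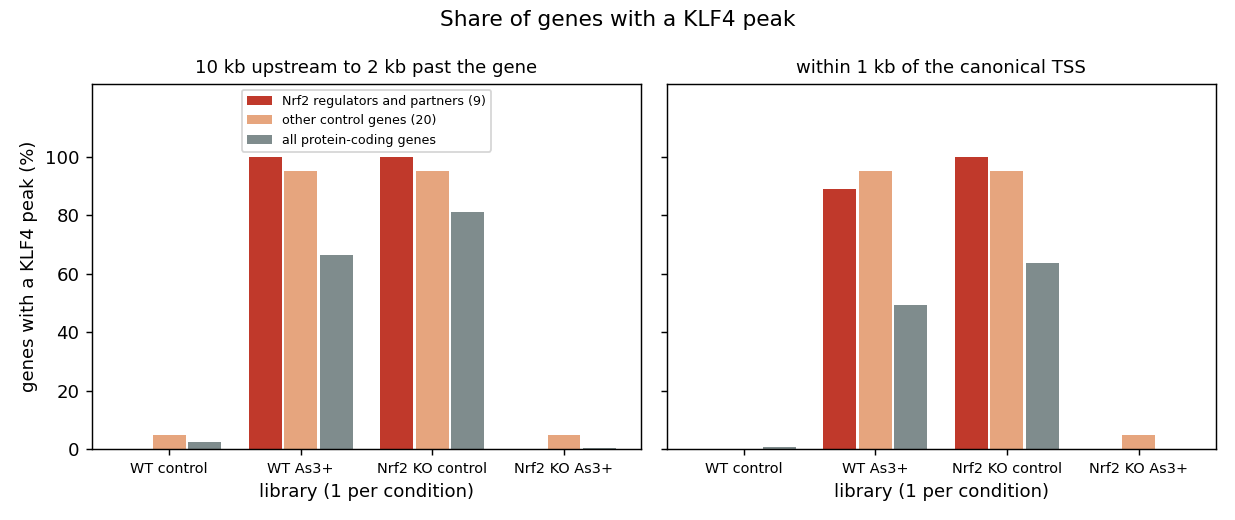
Percentage of genes with a KLF4 peak in each library (x axis) for the 9 Nrf2 regulators and partners, 20 other control genes and all protein-coding genes, in the gene window (left) and within 1 kb of the canonical start (right). The 3 groups are high in WT As3+ and Nrf2 KO control cells and near 0 in the other libraries, and all protein-coding genes reach 66.5% and 81.0% in the gene window.

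The sequences under 7 summits are given as examples. Several were picked for a word or a high fold, so they do not stand for all member peaks. Each is 150 bases around a summit on the strand of the gene, read from GRCh38/hg38, with capitals for an ARE core (TGACNNNGC), an AP-1 word (TGACTCA or TGAGTCA) or a KLF word (CCACACCC or CCACGCCC) on either strand. NFE2L2 is represented by its peak found in WT As3+ but not in Nrf2 KO control cells (chr2:177265178-177265327, minus strand). MAFG is represented by its highest WT As3+ peak at the promoter (chr17:81927829-81927978, minus strand) and by the site in its first intron that carries an ARE core in both lists (chr17:81927014-81927163, minus strand). The MAFK window holds the only AP-1 word in the 200 bp around WT As3+ member summits (chr7:1537216-1537365, plus strand). The BACH1 window, around a Nrf2 KO control summit, holds an AP-1 word at the promoter (chr21:29298754-29298903, plus strand). The CUL3 window holds a KLF word upstream of the start (chr2:224585537-224585686, minus strand). The SQSTM1 window is the WT As3+ peak with the highest fold of all members and has none of these words (chr5:179807048-179807197, plus strand).
NFE2L2 upstream: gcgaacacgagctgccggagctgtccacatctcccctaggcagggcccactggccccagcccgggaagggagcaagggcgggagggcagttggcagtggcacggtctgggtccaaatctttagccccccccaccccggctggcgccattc
MAFG promoter: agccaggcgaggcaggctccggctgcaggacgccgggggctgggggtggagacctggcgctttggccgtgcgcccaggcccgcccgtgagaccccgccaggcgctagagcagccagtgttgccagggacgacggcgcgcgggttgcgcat
MAFG first intron: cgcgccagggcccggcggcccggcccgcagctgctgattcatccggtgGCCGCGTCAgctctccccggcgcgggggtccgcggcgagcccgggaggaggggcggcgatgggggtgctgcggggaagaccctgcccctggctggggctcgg
MAFK first intron: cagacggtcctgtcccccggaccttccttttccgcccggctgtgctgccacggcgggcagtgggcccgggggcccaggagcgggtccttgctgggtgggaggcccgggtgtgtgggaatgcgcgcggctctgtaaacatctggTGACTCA
BACH1 promoter: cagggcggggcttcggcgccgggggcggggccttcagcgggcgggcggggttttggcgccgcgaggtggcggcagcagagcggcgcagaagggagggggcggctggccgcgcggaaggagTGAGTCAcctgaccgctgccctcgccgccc
CUL3 upstream: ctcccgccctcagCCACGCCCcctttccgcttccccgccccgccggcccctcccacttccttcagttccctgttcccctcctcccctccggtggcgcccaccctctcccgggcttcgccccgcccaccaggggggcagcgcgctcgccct
SQSTM1 distal start: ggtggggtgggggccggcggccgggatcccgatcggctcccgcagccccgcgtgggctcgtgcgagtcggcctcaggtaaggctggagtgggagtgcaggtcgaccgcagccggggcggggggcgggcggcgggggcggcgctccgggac
The 7 windows are rich in G and C, but not every member window is. In 200 bp the GC content was 41% at the WT As3+ peak 49572 bp upstream of BACH1. It was 35.5% at the Nrf2 KO control peak 30708 bp upstream of NFE2L2. The median GC content of 200 bp around the summit was 70.8% for the 30 WT As3+ member peaks and 63.5% for the 52 of Nrf2 KO control cells, against 64.5% and 61.5% over all peaks of the 2 lists.

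NFE2L2, which encodes Nrf2 itself, spans chr2:177218667-177392756 on the minus strand. It had 0 peaks in WT control, 3 in WT As3+, 5 in Nrf2 KO control and 0 in Nrf2 KO As3+ cells. In WT As3+ cells the peak 597 bp into the gene, in intron 1, had a fold enrichment of 6.59 over local background (17 fragments, exact Poisson 95% interval of the fold 3.99 to 10.3), and the 1 that lay 526 bp upstream had a fold of 4.44. Such intervals cover counting error only. In Nrf2 KO control cells the promoter peak had a fold of 7.53 (15 fragments, 4.42 to 12.1) and its summit was 911 bp into the gene, within a peak of 1481 bp that overlapped the WT As3+ one. The highest WT As3+ peak of the window, with a fold of 8.54, lay 127912 bp upstream of the canonical start, 38 bp from an annotated distal start of NFE2L2 and 134 bp from the start of AGPS, an enzyme gene of ether lipid synthesis on the other strand. The 2 Nrf2 KO control peaks there had folds of 6.35 and 5.52, so this site cannot be assigned to 1 of the genes. Peaks 30708 and 48787 bp upstream were listed in Nrf2 KO control cells only, at folds of 4.92 and 4.62 and with 7 and 6 fragments. The edited gene carried KLF4 peaks at its start in both longer lists, the knockout one included.

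The KEAP1 and CUL3 genes, whose products hold Nrf2 down, had the lowest folds at their highest WT As3+ peaks, with counting intervals that overlapped those of the other members. In Nrf2 KO control cells KEAP1 was the lowest. CUL3, the lowest in WT As3+ cells, equalled BACH1 there at 6.32 and lay above NFE2L1 at 5.72. KEAP1, the sensor that binds Nrf2, spans chr19:10486125-10503558 on the minus strand and had 2 peaks in WT As3+ and 5 in Nrf2 KO control cells. The WT As3+ peak 416 bp into the gene had a fold of 5.47 (15 fragments, 3.21 to 8.80), and the other, 2014 bp in, had a fold of 4.08 on 7 fragments. The Nrf2 KO control peaks had folds of 4.00 to 4.67, all below that of the WT As3+ promoter peak. They lay 3142 bp upstream, 464, 829 and 1335 bp into the gene and, for the highest, in coding exon 3. CUL3, the scaffold of the ligase, spans chr2:224470150-224585397 on the minus strand and had 1 peak in WT As3+ cells and 2 in Nrf2 KO control cells. At its start the fold was 4.76 in WT As3+ (12 fragments, 2.64 to 8.04) and 6.32 in Nrf2 KO control cells (14 fragments, 3.65 to 10.3), at summits 249 and 405 bp upstream. The second Nrf2 KO control peak, 50405 bp into the gene in intron 3, had a fold of 5.70 on 8 fragments. At a −log10 q of at least 5, 8 of 9 members kept a peak in each of the 2 lists, as did 38.2% of protein-coding genes in WT As3+ and 51.0% in Nrf2 KO control cells. The member without 1 was CUL3 in WT As3+ and KEAP1 in Nrf2 KO control cells.

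SQSTM1 encodes p62, the autophagy receptor that takes KEAP1 out of play, and had the most peaks of the set. It spans chr5:179806398-179838078 on the plus strand and had 8 peaks in WT As3+ and 12 in Nrf2 KO control cells. As many or more were found at 1.61% of protein-coding genes in WT As3+ and at 5.38% in Nrf2 KO control cells. The canonical start lies 14507 bp inside the annotated gene, and the peaks formed a group at each start. At the canonical start the WT As3+ peak 152 bp upstream had a fold of 6.75 (19 fragments, 4.20 to 10.3), and the 1283-bp Nrf2 KO control peak that covered it had a fold of 7.16 (16 fragments, 4.27 to 11.4) with its summit 868 bp into the gene. A site about 2 kb upstream had folds of 6.32 in WT As3+ and 5.40 in Nrf2 KO control cells, with summits only 45 bp apart. At the distal start the WT As3+ peak 13782 bp upstream had a fold of 9.30 (18 fragments, 5.71 to 14.4), the highest WT As3+ fold of any member. The Nrf2 KO control peak at that site had a fold of 7.50. This group lies by the start of MGAT4B, a glycosyltransferase gene, which is 257 bp from the WT As3+ summit. MGAT4B was the nearest protein-coding start for 4 of the 8 WT As3+ peaks and 6 of the 12 Nrf2 KO control peaks. On the canonical transcript alone with the same margins the 9 members held 22 and 42 peaks in place of 30 and 52, and each of the 9 still had at least 1.

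The small MAF genes encode the DNA-binding partners of Nrf2 and of BACH1, and their peaks differed in place. MAFG, at chr17:81918270-81927735 on the minus strand, had 5 peaks in WT As3+ and 11 in Nrf2 KO control cells in a window of only 21.5 kb. Its promoter peak, 169 bp upstream, had a fold of 8.85 in WT As3+ cells (30 fragments, 6.06 to 12.5) and stood within the top 1.74% of that list by p-value. In Nrf2 KO control cells the overlapping peak had a fold of 6.12 (12 fragments, 3.39 to 10.3) with a summit 43 bp upstream. All 5 WT As3+ peaks of MAFG overlapped a Nrf2 KO control peak. The pair 9496 bp upstream and 9656 bp downstream of the start, with folds of 7.99 and 5.77, lay 69 bp from the start of PYCR1, a proline synthesis gene, and 97 bp from that of SIRT7, a deacetylase gene. MAFK, at chr7:1530702-1543043 on the plus strand, had 4 peaks in WT As3+ and 5 in Nrf2 KO control cells. It was the only member with no WT As3+ peak within 1 kb of its canonical start, since all 4 lay 3771 to 8221 bp into intron 1. The highest of them had a fold of 6.88 (17 fragments, 4.17 to 10.8), and in Nrf2 KO control cells the highest, 6419 bp in, had a fold of 7.53. A Nrf2 KO control peak 737 bp from the start had a fold of 5.16 on 7 fragments. MAFF, at chr22:38200767-38216507 on the plus strand, had 2 peaks in WT As3+ and 4 in Nrf2 KO control cells. In WT As3+ cells 1 peak of 1782 bp, the widest of the set, covered its start with a fold of 6.34 (20 fragments, 3.99 to 9.63). In Nrf2 KO control cells 2 peaks lay beneath it with folds of 7.70 and 7.23. The other WT As3+ peak, 10686 bp upstream with a fold of 4.98, was nearest to PLA2G6, a phospholipase gene.

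BACH1, the repressor that competes with Nrf2 for MAF partners, was the only member with more peaks in WT As3+ than in Nrf2 KO control cells, 3 against 2. It spans chr21:29194071-29630751 on the plus strand, the longest window of the set at 449 kb. Its promoter peak had a fold of 8.04 in WT As3+ cells (19 fragments, 5.00 to 12.3) with the summit 60 bp into the gene, and 6.32 in Nrf2 KO control cells (14 fragments, 3.65 to 10.3) with the summit 93 bp upstream. The other WT As3+ peaks, 49572 bp upstream and 177609 bp downstream of the start, had folds of 4.26 and 4.23 and overlapped no Nrf2 KO control peak. Both lay outside the canonical transcript with margins of 10 kb and 2 kb, on 8 and 13 fragments. The higher WT As3+ number thus rests on the long window. Within 1 kb of the canonical start BACH1 had 1 WT As3+ peak and 2 Nrf2 KO control peaks. NFE2L1, the related factor that drives proteasome genes, spans chr17:48048329-48061545 on the plus strand and had 2 peaks in WT As3+ and 6 in Nrf2 KO control cells. At its start the fold was 6.27 in WT As3+ (27 fragments, 4.21 to 9.02) and 5.72 in Nrf2 KO control cells (14 fragments, 3.30 to 9.34). The local background of this WT As3+ peak was 4.58 times the lowest of the list. The 5 other Nrf2 KO control peaks of NFE2L1 had folds of 3.05 to 4.62, lay 1087 to 13027 bp into the gene and overlapped no WT As3+ peak.

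**Figure D3:**
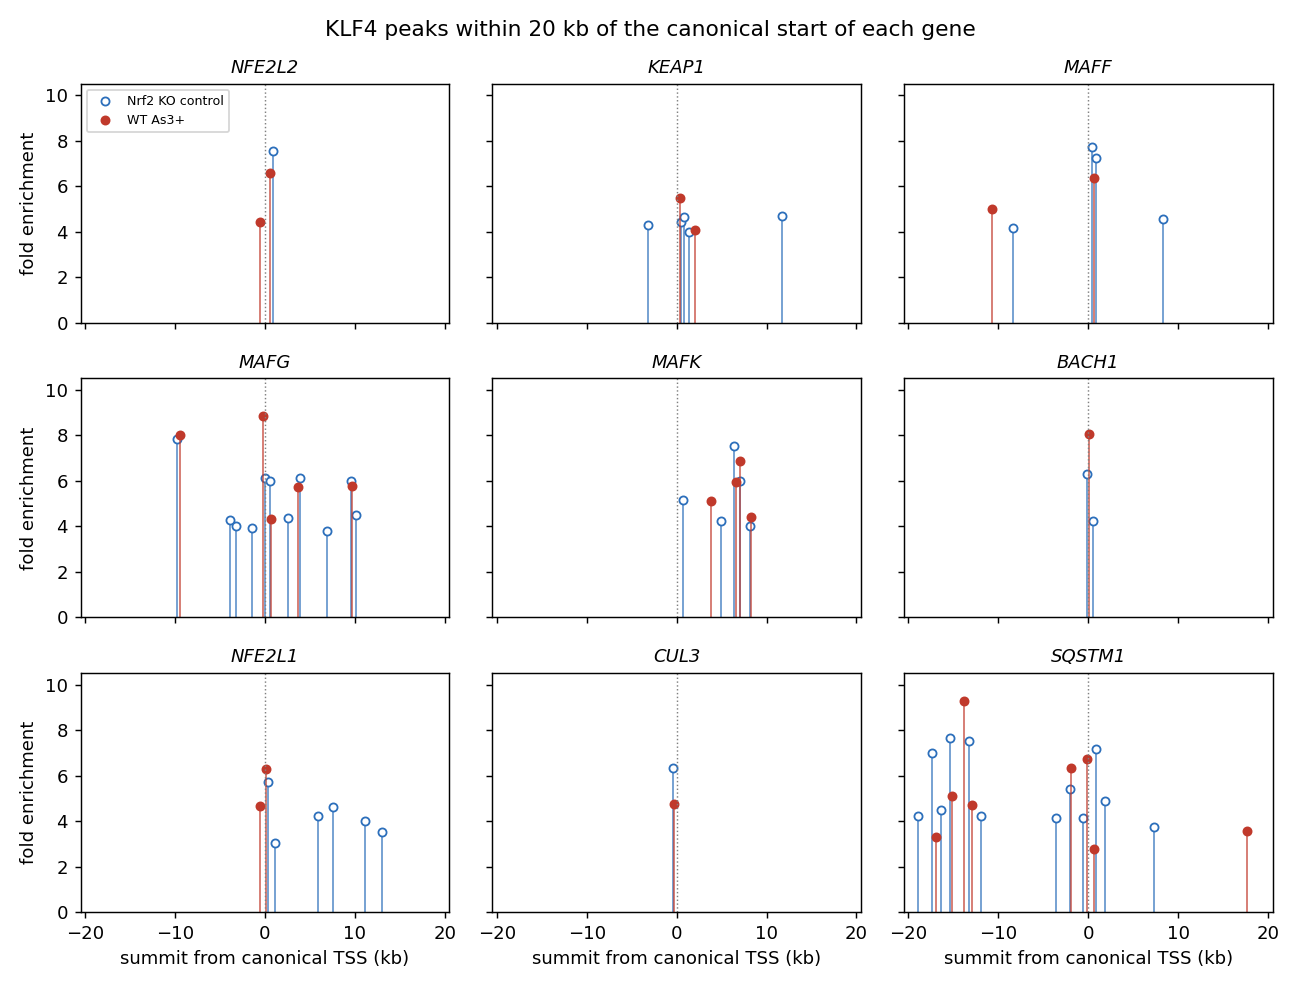
Fold enrichment over local background (y axis) against distance of the summit from the canonical start (x axis, kb, positive into the gene) for the peaks of each gene in WT As3+ (filled) and Nrf2 KO control cells (open). Peaks of both lists meet at the start of 8 genes and at 6 to 8 kb in MAFK, and 8 of the 82 peaks lie beyond 20 kb and are not drawn.

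By highest fold, the order in WT As3+ cells was SQSTM1 (9.30), MAFG (8.85), NFE2L2 (8.54), BACH1 (8.04), MAFK (6.88), MAFF (6.34), NFE2L1 (6.27), KEAP1 (5.47) and CUL3 (4.76). In Nrf2 KO control cells it was MAFG (7.82), MAFF (7.70), SQSTM1 (7.65), NFE2L2 and MAFK (7.53 each), BACH1 and CUL3 (6.32 each), NFE2L1 (5.72) and KEAP1 (4.67). These are the highest peaks of each window, and some lay by the start of another gene. In WT As3+ cells the SQSTM1 peak was 257 bp from the MGAT4B start and the NFE2L2 peak 134 bp from the AGPS start. Within 1 kb of their canonical starts the highest WT As3+ folds were 6.75 and 6.59, below 8.04 at BACH1. In Nrf2 KO control cells the MAFG peak was 255 bp from the PYCR1 start and the SQSTM1 peak 1319 bp from the MGAT4B start. The counting intervals of all neighbours in both orders overlapped, and so did those of the first and the last member in each list. For each gene the intervals of the 2 lists overlapped as well. For NFE2L2, KEAP1, MAFG, MAFK and SQSTM1 the highest peaks of the 2 lists lay at different sites, so these intervals compare unlike sites.

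**Figure D4:**
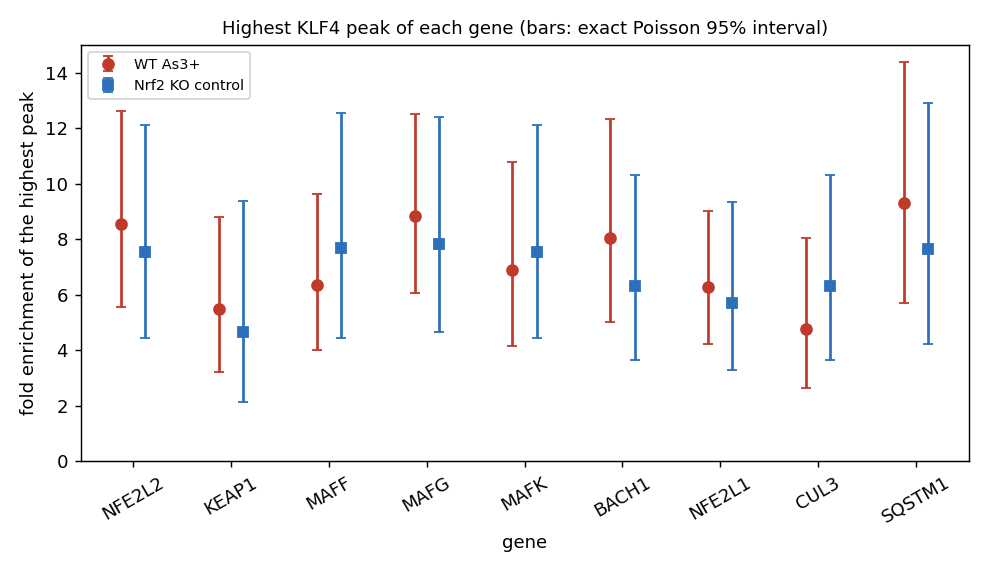
Fold enrichment of the highest KLF4 peak of each gene (y axis) in WT As3+ (circles) and Nrf2 KO control cells (squares), with bars for the exact Poisson 95% interval of the fragment number. Folds run from 4.76 to 9.30 and from 4.67 to 7.82, and the 2 bars of each gene overlap. For NFE2L2, KEAP1, MAFG, MAFK and SQSTM1 the 2 bars belong to different sites. Some highest peaks lie by the start of another gene.

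Peaks at the starts were common to most members. A summit lay within 1 kb of the canonical start at 0 of the 9 in WT control, 8 in WT As3+, 9 in Nrf2 KO control and 0 in Nrf2 KO As3+ cells. The same rule took 0.694%, 49.3%, 63.6% and 0.180% of protein-coding genes. Of the 30 WT As3+ peaks, 12 were within 1 kb of the start of the member, 14 were upstream of the start at any distance, 13 lay in intron 1, 3 lay downstream of the canonical transcript and 0 lay in an exon. Of the 52 Nrf2 KO control peaks, 14 were within 1 kb, 22 were upstream, 20 lay in intron 1, 4 in other introns, 4 in exons and 2 downstream. The nearest protein-coding start belonged to another gene for 8 of the 30 and 12 of the 52. The member peaks were wide, with medians of 417 and 338.5 bp against 290 and 267 bp over the lists, and 5 of 30 and 7 of 52 were 1 kb or wider, against 2.67% and 2.23% of all peaks. Their median fold was 5.29 in WT As3+ and 4.63 in Nrf2 KO control cells, against 4.72 and 4.69 over the whole lists.

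The positions in WT As3+ and Nrf2 KO control cells were shared in part. Of the 30 WT As3+ member peaks, 22 overlapped a Nrf2 KO control peak by at least 1 bp (73.3%, exact binomial 95% interval 54.1 to 87.7), against 55.6% of all WT As3+ peaks. Of the 52 Nrf2 KO control member peaks, 24 overlapped a WT As3+ peak (46.2%, 32.2 to 60.5), against 21.7% of all Nrf2 KO control peaks. Neighbouring peaks of 1 gene are not independent, so the intervals may be too narrow. Much of the sharing was at starts. Within 1 kb of a protein-coding start 14 of 16 WT As3+ member peaks were shared (87.5%, against 81.7% over the list), and beyond it 8 of 14 (57.1%, against 38.8%). With a reciprocal overlap of at least 50%, 11 of the 30 were shared, or 36.7%, and the share of all WT As3+ peaks under this rule is not given here. Merged across both lists the peaks made 56 sites, of which 20 were in both, 8 in WT As3+ only and 28 in Nrf2 KO control only. Each of the 9 genes had at least 1 site in both. The whole lists were not split into sites here, so this split cannot be read as particular to the members. The fold was higher in WT As3+ at 10 of the 20 common sites and higher in Nrf2 KO control at the other 10. Their summits were 34 to 1020 bp apart, with a median of 210.5 bp. Member peaks that overlapped the other list had higher folds, with a median of 6.10 against 4.35 in WT As3+ and 6.22 against 4.24 in Nrf2 KO control cells. Medians of the same kind over all peaks are not given here, so whether this is particular to the members was not tested.

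Words of known factors were found under a minority of summits. An ARE core lay in 200 bp around 3 of the 30 WT As3+ summits, 10% against 9.36% of all summits of that list, and 9 of the 52 Nrf2 KO control summits, 17.3% against 9.17%. In WT As3+ cells they were GCCTAGTCA at NFE2L2, 597 bp into the gene, GCCGCGTCA at MAFG, 646 bp into the gene, and GCGCGGTCA at BACH1, 60 bp into the gene. The MAFG site was also within the window of the Nrf2 KO control summit 604 bp into the gene, as shown in capitals above. The NFE2L2 and BACH1 cores lay inside Nrf2 KO control peaks as well, but outside the 200 bp around those summits. Of the 9 Nrf2 KO control windows, 2 carried a core whose 25 surrounding bases were found 631 times (KEAP1, 3142 bp upstream) and 5830 times (MAFF, 8412 bp upstream) in the reference, so those cores lie in repeated sequence. The longer ARE word TGACTCAGC lay in 0 of the 82 windows, against 0.770% and 0.413% of all summits of the 2 lists. A KLF word lay under 3 WT As3+ summits, at KEAP1, MAFK and CUL3 (10% against 10.3%), and under 2 Nrf2 KO control summits, at MAFG and CUL3 (3.85% against 9.27%). AP-1 words lay under 1 and 2 summits, at MAFK in WT As3+ and at BACH1 and MAFF in Nrf2 KO control cells (3.33% against 4.33%, and 3.85% against 2.54%). The BACH1 AP-1 word also lay inside the WT As3+ promoter peak, but outside the 200 bp around its summit. With the wider KLF set, which also takes CCCCACCC and CCCCGCCC, 12 of 30 and 19 of 52 windows had a word, 40.0% against 31.2% and 36.5% against 24.4%. In the 300-base RefSeq promoters (GRCh38.p14) that matched 8 of the 9 members, an ARE core lay at KEAP1 and MAFF and an AP-1 word at BACH1. ARE cores were found in 13.3% of all 35116 promoters and AP-1 words in 4.95%. The KLF word lay at 0 of the 8, against 8.05%, and the wider KLF set at 7 of 8, against 34.5%. The members were counted as genes, most of them with more than 1 promoter, and the percentages count single promoters. The units are thus unlike, and a member had more chances to hold a word. Word matches are descriptions of letters in a window and do not show binding.

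A wider list of 20 genes that act on Nrf2, KEAP1 or NFE2L1, or are their paralogs, had the same pattern with a few departures. Of these, 1, 19, 19 and 1 had a peak in WT control, WT As3+, Nrf2 KO control and Nrf2 KO As3+ cells, and 16 of 20 had peaks in the 2 longer lists alone. The shares of all protein-coding genes were 2.51%, 66.5%, 81.0% and 0.439%, and 61.3% had peaks in the 2 longer lists alone. The pattern is thus that of most genes and not particular to this list. NFE2, the erythroid paralog of Nrf2, was the gene with a WT control peak (fold 4.48), against 11.2 in WT As3+, 6.23 in Nrf2 KO control and no peak in Nrf2 KO As3+ cells. MAP1LC3B, an autophagosome protein that binds p62, was the gene with a Nrf2 KO As3+ peak (fold 4.88), against 14.2 in WT As3+, 15.3 in Nrf2 KO control and no peak in WT control cells. Its folds in the longer lists were above those of every member. RBX1, the RING subunit of the CUL3 ligase, had folds of 9.74 and 9.01 and no peak in either short list. BTRC, a substrate adaptor of another cullin ligase, was the gene with no WT As3+ peak, and AMER1, a KEAP1-binding protein, the gene with no Nrf2 KO control peak. None of the 20 lacked a peak in every list.

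By number of peaks in the 4 libraries, the profile of NFE2L2 was that of 243 other protein-coding genes, of which KIF1B, TMEM131L and SLCO5A1 had the closest window lengths. The profile of KEAP1 was that of 325 others, led by FAM53C, CARD19 and HAP1. The likeness rests on 4 numbers per gene.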

How the data were processed

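KLF4 ChIP-seq was analysed in 4 libraries, grouped by their labels. The histone mark and input libraries were not analysed here. Reads were demultiplexed with bcl2fastq 2.17, per the submitters' processing notes, and aligned by the authors with BWA to GRCh38/hg38. The peak caller and the input it used are not given in the sources used here. The deposited lists give, for each peak, a fold enrichment (a ratio to local background), a −log10 p-value and −log10 q-value, a score and a summit offset, all as the authors made them. Only the autosomes and the sex chromosomes entered, where 0 listed peaks ran past a chromosome end.

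Fragments n and background were solved from fold = (n + 1)/(background + 1) and the Poisson tail of more than n, with a largest misfit of 0.000405 in −log10 p. Genes, starts and Ensembl canonical transcripts came from GENCODE 44. Words were searched on both strands with Python 3.11.15, pysam 0.24.0, numpy 2.4.6, pandas 2.3.3 and scipy 1.17.1, and figures were drawn with matplotlib 3.10.9. The steps were tested on simulated data. Intervals are exact Poisson or Clopper-Pearson (95%) and cover counting error only. No test between conditions was run, since each has 1 library.

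The members and gene lists were chosen with earlier results of these data known. All 9 members are named. Of the 20 other control genes, those with a peak in a short list and the 3 highest WT As3+ folds are named, with BTRC and AMER1 added after their values were seen. The count of copies of the 25 bases around a word was also added then. Genes like NFE2L2 and KEAP1 were the 3 with the smallest summed difference in peak number over the 4 libraries, ties by window length.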

Additional observations from a re-analysis of the deposited data

Results flagged for a closer look

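The change with As3+ went in opposite directions in WT and Nrf2 KO cells. The number of members with a KLF4 peak differed by 9 between WT As3+ and WT control cells and by -9 between Nrf2 KO As3+ and Nrf2 KO control cells. The peaks in the member windows differed by 30 and -52, and the members with a peak within 1 kb of the canonical start by 8 and -9. With 1 library per condition this difference between the genotypes was not tested. The peak numbers of the whole lists, 751, 29870, 76545 and 130, moved the same way. The lowest background and the lowest −log10 p of the lists moved the other way, from 1.90 to 0.757 and from 4.64 to 3.17 with As3+ in WT cells, and from 0.491 to 1.64 and from 2.87 to 5.03 in Nrf2 KO cells. The direction in Nrf2 KO cells rests on the labels of 2 single libraries, which the lists cannot check. Differences between libraries and between conditions cannot be told apart.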

How the results depend on the processing

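In WT As3+ and Nrf2 KO control cells the number of members with a peak stayed within 1.5 times its value in 14 of 16 comparisons with an alternative, and the number with a peak at the canonical start in 8 of 8. In the other libraries both counts were 0 under every alternative, most of which only shorten a list or a window and could not raise them. The exceptions came from taking only as many of the strongest peaks as the shortest list holds, which left 0 members and 0 peaks in WT As3+ and in Nrf2 KO control cells. The count of member peaks fell to 16 and 19 at a −log10 q of at least 5 and to 17 and 22 at a fold of at least 5, in WT As3+ and Nrf2 KO control cells. Reciprocal overlap of at least 50% took the shared WT As3+ member peaks to 36.7%. Word counts depended on the window. In 400 bp, ARE cores lay at 9 WT As3+ and 15 Nrf2 KO control summits, AP-1 words at 5 and 6, and the KLF word at 9 Nrf2 KO control summits. In 100 bp, AP-1 words lay at 0 and 0 and the KLF word at 1 and 0. The long ARE word gave 0 and 0, and the wide KLF set 12 and 19.

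No paired analysis was possible because each condition has 1 library and no result comes from a test. The lists hold no read totals, so the depth behind a missing peak is unknown, and a peak that is not listed is not a measurement of 0. Most member peaks of Nrf2 KO control cells rest on few fragments, with a median of 8, against 14 in WT As3+ cells.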
